A study of Homo sapiens with 6 samples.

Results

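Peaks of SF3B4-bound RNA at the ends of introns longer than 250 nt and up to 2000 nt, called mid-length here, were examined. The cells were HEK293T, derived from human embryonic kidney and carrying the SV40 large T antigen. SF3B4 was mapped by eCLIP, in which RNA crosslinked to a protein is recovered with an antibody and sequenced beside an input library. There were 2 libraries with an antibody against SF3B4, 2 of input without antibody, and 2 with an anti-HA antibody for G4PID, a biotin ligase aimed at G-quadruplexes. Per the labels, cultures received a plasmid encoding G4PID or one encoding the biotin ligase miniTurboID, and then biotin at 500 µM for 30 min. The labels give this same text for every library, so whether the SF3B4 and input cultures carried a plasmid is not settled. Each antibody has 1 deposited peak list and no value per library, so no spread between replicates could be computed and read depth is unknown. A member is an SF3B4 peak with its midpoint 1 to 60 nt upstream of the nearest annotated 3' splice site of its gene, where the shortest basic intron ending at that site has that length. The rule found 1371 such peaks among 3660 SF3B4 peaks and 3930 peaks in the series. They made up 37.5% of the SF3B4 list (95% Wilson interval 35.9 to 39.0%) and 48.4% of its 2830 peaks within 1 to 60 nt of a 3' splice site. The other 863 and 596 such peaks lay at short introns (250 nt or less) and long introns (over 2000 nt). Intervals cover counting error only.

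The end of an intron carries the branch point, whose adenosine attacks the 5' splice site, then a pyrimidine-rich tract and a terminal AG at the 3' splice site. SF1 and U2AF first recognise these elements, and the U2 small nuclear ribonucleoprotein then replaces SF1 by pairing with the branch point. SF3B4 is a subunit of SF3b, the part of the U2 particle that clamps the branch point duplex and contacts the RNA just upstream of it.

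To show the RNA under the peaks, the last 60 nt of the intron are given 5' to 3' for the 12 named genes with the highest peak values whose intron end is covered by an annotated transcript. For RABGGTB this is the second-highest of its peaks. Capitals mark CTNAC (N is any base), a short form of the branch point motif, wherever it lies wholly 15 to 45 nt before the splice site. The sequences were read from GENCODE 29 transcripts placed on hg38, and the final base is the last base of the intron.
HNRNPH1 (chr5:179614960-179615019, minus strand): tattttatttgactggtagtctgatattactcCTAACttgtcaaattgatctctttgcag
EIF4A1 (chr17:7576996-7577055, plus strand): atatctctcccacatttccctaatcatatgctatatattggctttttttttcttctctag
HNRNPU (chr1:244854504-244854563, minus strand): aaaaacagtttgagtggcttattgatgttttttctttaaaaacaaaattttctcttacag
METTL17 (chr14:20995105-20995164, plus strand): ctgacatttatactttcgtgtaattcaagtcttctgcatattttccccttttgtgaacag
SRSF5 (chr14:69769122-69769181, plus strand): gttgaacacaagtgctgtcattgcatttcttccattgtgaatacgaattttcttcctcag
DNMT1 (chr19:10162749-10162808, minus strand): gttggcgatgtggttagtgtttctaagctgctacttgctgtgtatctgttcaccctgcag
RBM39 (chr20:35713097-35713156, minus strand): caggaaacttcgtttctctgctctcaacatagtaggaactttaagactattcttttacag
RABGGTB (chr1:75794024-75794083, plus strand): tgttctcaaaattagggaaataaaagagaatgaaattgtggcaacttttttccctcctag
RPL18 (chr19:48615448-48615507, minus strand): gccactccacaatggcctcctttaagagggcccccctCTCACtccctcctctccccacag
EIF4G2 (chr11:10806048-10806107, minus strand): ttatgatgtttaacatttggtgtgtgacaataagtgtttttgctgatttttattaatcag
EEF1A1 (chr6:73520057-73520116, minus strand): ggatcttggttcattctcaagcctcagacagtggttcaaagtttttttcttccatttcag
RPL26 (chr17:8382339-8382398, minus strand): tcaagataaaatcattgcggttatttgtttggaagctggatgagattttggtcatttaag

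HNRNPH1 encodes a splicing regulator that binds G-rich RNA, and its sequence holds CTAAC with the A 25 nt upstream of the splice site, inside a peak that extends from 53 to 8 nt upstream. RPL18 encodes a large-subunit ribosomal protein, and its CTCAC has the A 20 nt upstream, within a peak from 80 to 17 nt upstream. The other 10 sequences had no CTNAC wholly in that window. The stretch 4 to 23 nt upstream held 18 pyrimidines of 20 in EIF4A1 and RPL18 but 10 in HNRNPU and RPL26.

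For contrast, the mid-length intron nearest in order in the same gene without a peak under the rule is given for the first 3 of these genes that have one with known sequence. A missing peak, here and in the comparisons of sites below, says only that no deposited peak had its midpoint in the window of the rule. Such a site may have a deposited peak centred outside that window, or none that passed the authors' thresholds.
HNRNPH1 (chr5:179615596-179615655, minus strand): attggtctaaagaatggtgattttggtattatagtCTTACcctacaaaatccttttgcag
EIF4A1 (chr17:7575059-7575118, plus strand): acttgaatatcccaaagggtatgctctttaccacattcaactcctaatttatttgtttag
HNRNPU (chr1:244855045-244855104, minus strand): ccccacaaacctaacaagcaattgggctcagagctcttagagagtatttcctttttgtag

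The HNRNPH1 intron without a peak also held the motif, as CTTAC with the A 22 nt upstream. The EIF4A1 and HNRNPU introns without a peak held none wholly in the window, with 14 and 12 pyrimidines of 20.

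Peaks at mid-length introns mostly covered the position 25 nt upstream of the splice site and about as often as not reached the exon. Their midpoints lay a median of 31 nt upstream of the splice site (quartiles 19 and 39 nt). Width was 69 nt at the median (quartiles 43.5 and 96 nt, range 21 to 240 nt). The upstream edge lay a median of 61 nt before the splice site (quartiles 53 and 76 nt). Of the 1371 peaks, 1299 (94.7%) covered the position 25 nt upstream, 914 (66.7%) the position 10 nt upstream and 694 (50.6%) the first base of the exon. Coverage was highest 36 nt upstream, at 1352 peaks, which the choice of midpoints 1 to 60 nt upstream partly sets. The same choice largely sets the cover of the position 25 nt upstream, which was 94.9% at short and 96.3% at long introns. The rule did not use the edges of the peaks directly, but each edge follows from the midpoint and the width. At the border of the rule, 6 mid-length peaks had their midpoint 1 nt and 4 had it 60 nt upstream, against 12 at the first exon base and 9 at 61 nt.

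**Figure D1:**
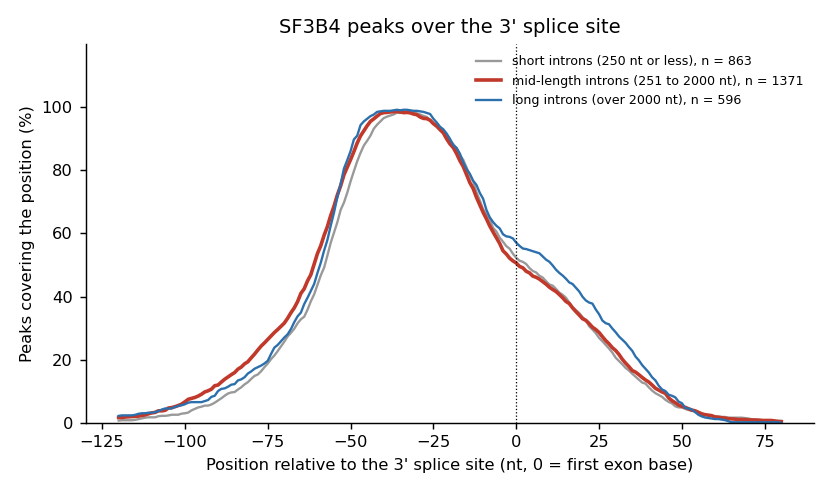
Percent of SF3B4 peaks covering each position around the 3' splice site, by length class of the intron (lines; horizontal axis in nt, 0 is the first exon base). The mid-length line is highest 36 nt upstream and stands at 50.6% at the first exon base, where the long-intron line stands at 57.0%.

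Fewer mid-length than long-intron peaks reached the exon, 694 of 1371 (50.6%, 95% Wilson interval 48.0 to 53.3%) against 340 of 596 (57.0%, 53.04 to 60.96%). The odds ratio was 0.772 (two-sided Fisher's exact test, with p = 0.0277 after Benjamini-Hochberg adjustment over 12 tests). Peaks are the units here, and this call ended with the longest annotated intron, with all transcripts, with lengths over 300 and up to 1500 nt and with midpoints 10 to 60 nt upstream (adjusted exact p from 0.0735 to 0.270). Against short introns, where 52.3% reached the exon, the difference was -1.64 percentage points (95% Newcombe interval -5.88 to 2.61, adjusted exact p = 0.552), and its direction turned with 1 peak per gene (odds ratio 1.03, adjusted exact p = 0.882).

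Midpoints 20 to 40 nt upstream were found for 734 mid-length peaks (53.5%), 458 short-intron peaks (53.1%) and 292 long-intron peaks (49.0%). The difference was 0.467 percentage points from short introns (interval -3.77 to 4.71, adjusted exact p = 0.862). From long introns it was 4.54 points (interval -0.258 to 9.32, adjusted exact p = 0.119). Both directions turned when the upstream edge of the peak, 40 to 70 nt before the splice site, was counted in place of the midpoint: 931 of 1371 mid-length peaks, 625 of 863 short-intron peaks and 435 of 596 long-intron peaks met that rule. The odds ratios were then 0.806 against short and 0.783 against long introns (adjusted exact p = 0.0526 for each). The choice of members bounded the midpoints at 1 to 60 nt in all 3 classes alike.

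The authors' second value per peak was read as log2 fold over input, and it is used only to rank and describe peaks of this list. Among mid-length peaks it ran from 3.004 to 7.13 with a median of 3.94 (quartiles 3.51 and 4.58). The medians at short and long introns were 3.88 and 3.93. A value of 4 or more was found for 656 mid-length peaks (47.8%), 384 short-intron peaks (44.5%) and 280 long-intron peaks (47.0%). Mid-length peaks differed from short-intron peaks by 3.35 percentage points (interval -0.896 to 7.57, adjusted exact p = 0.191) and from long-intron peaks by 0.868 points (-3.93 to 5.64, adjusted exact p = 0.798). Neither direction held under every alternative. Values were coarse: 1213 of the 1371 peaks shared their exact pair of fold and p with another SF3B4 peak, and the 1371 peaks took 335 distinct folds.

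Within the mid-length set, peaks centred 31 to 40 nt upstream were the highest and narrowest of the 10-nt groups. The 411 peaks centred 31 to 40 nt upstream had a median log2 fold of 4.31 and a median width of 45 nt, and 60.3% of them stood at 4 or more. The 152 peaks centred 1 to 10 nt upstream had a median of 3.69 and a width of 99 nt, and 28.9% stood at 4 or more. Peaks centred 41 to 50 and 51 to 60 nt upstream had medians of 4.09 and 4.18. Of the 159 peaks at 5 or more, 42 (26.4%) reached the exon and the median width was 49 nt. Of the 715 peaks under 4, 459 (64.2%) reached the exon and the median width was 81 nt. These values share the peaks they come from, and no test was made.

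**Figure D2:**
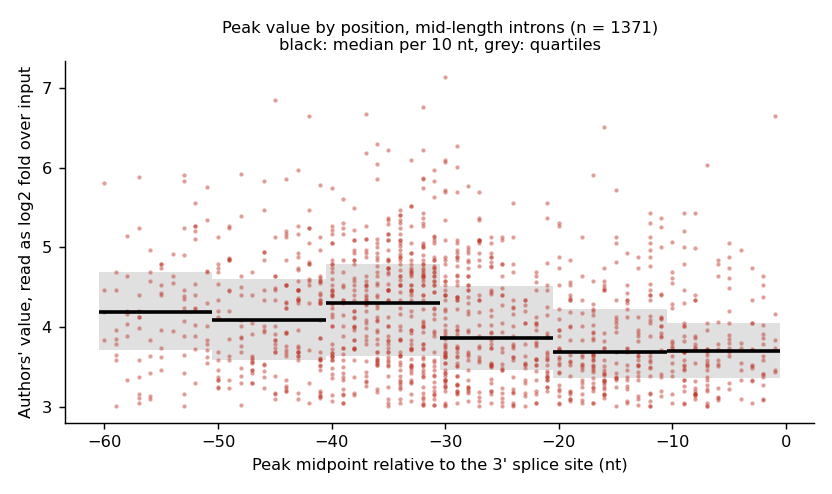
The authors' value, read as log2 fold over input, of each of the 1371 peaks at mid-length introns (points) against the position of its midpoint in nt, with the median (black) and quartiles (grey) per 10 nt. The median is highest, at 4.31, for midpoints 31 to 40 nt upstream.

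Among the 15 genes with the highest values, HNRNPH1 stood first with log2 fold 7.13, in the last of its introns (586 nt, peak at chr5:179614967-179615012). EIF4A1, the RNA helicase of the cap-binding complex, followed at 6.85 in an intron of 363 nt that holds the small nucleolar RNA gene SNORD10. RABGGTB, the beta subunit of the enzyme that prenylates Rab proteins, had 2 peaks at 6.76 and 6.05. HNRNPU, which encodes a nuclear matrix RNA-binding protein, reached 6.68 in an intron of 469 nt. RAD54L, a motor protein of homologous recombination, stood at 6.65 with a wide peak of 139 nt. These 5 peaks were centred 30 to 45 nt upstream of their splice sites.

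METTL17, a factor of mitochondrial ribosome assembly, also stood at 6.65, but its peak of 134 nt was centred 1 nt upstream and extended 66 nt past the first exon base. SRSF5, an SR protein, stood at 6.51 with a midpoint 16 nt upstream. RPL10, a large-subunit ribosomal protein, had 6.30 in its first intron (377 nt). WDR77, the partner of the arginine methyltransferase PRMT5, had 6.27 in an intron of 290 nt. The maintenance DNA methyltransferase DNMT1 and the poly(A)-binding protein PABPC1 had 6.22 each. The RNA-binding protein DAZAP1 stood at 6.18, the fatty acid synthase FASN and the cyclophilin PPIA at 6.09 each, and RBM39, a splicing factor related to U2AF, at 6.07. METTL17 and SRSF5 were the only 2 of the 15 leading peaks centred under 20 nt from the splice site.

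Most genes had a single such peak. The 1371 peaks lay in 966 genes, of which 691 had 1, 192 had 2 and 83 had 3 or more, and each peak lay at a splice site of its own. Among all 14080 annotated mid-length sites of genes with an SF3B4 peak, 1371 had one (9.74%), which is the background for the counts per gene below. How often each site is used in these cells was not measured.

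FANCA, a Fanconi anaemia core complex gene, had the most, with 9 of 17 mid-length sites and log2 folds from 3.49 to 5.31. HNRNPU had 7 of 12, and 6 of these 7 were centred 31 to 37 nt upstream with widths of 31 to 46 nt. The remaining HNRNPU peak, in an intron of 1986 nt, stood at 3.01 with a width of 93 nt. PCNX3 had 7 of 15 sites (3.08 to 4.69) and DGCR8, the Drosha partner in microRNA processing, 6 of 8 (3.01 to 5.24). RACK1, a scaffold protein of the small ribosomal subunit, had 6 of 9 sites, at 3.51 to 5.01, all centred 32 to 40 nt upstream. HNRNPH1 had 5 of 9 sites over the widest range in these genes, from 3.16 to 7.13.

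RPS4X, a small-subunit ribosomal protein gene, had peaks at 5 of 6 mid-length sites. Their log2 folds were 5.53, 5.13, 4.81, 4.30 and 3.64, and their midpoints fell 25 to 33 nt upstream. RPL3 had 5 of 8 sites (3.09 to 4.92), the mitochondrial valyl-tRNA synthetase gene VARS2 had 5 of 10 (3.37 to 4.71) and POLE, the catalytic subunit of DNA polymerase epsilon, 5 of 25 (3.01 to 4.15).

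**Figure D3:**
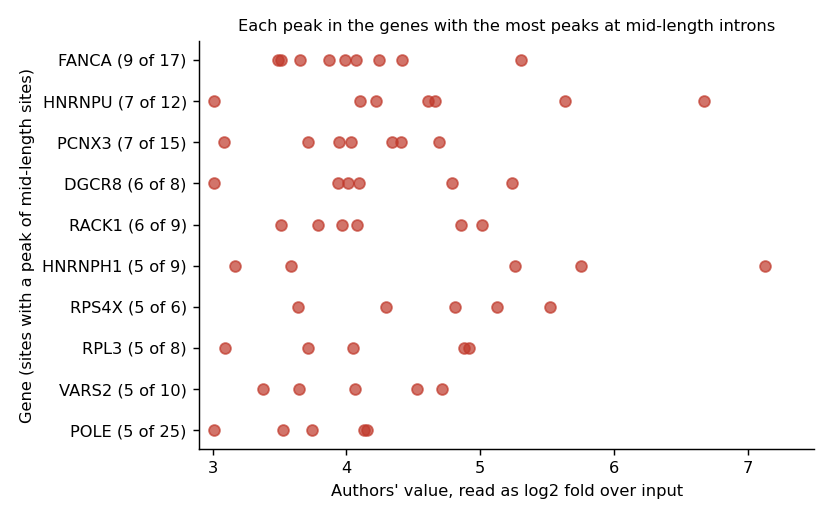
The authors' value, read as log2 fold over input, of every peak at a mid-length intron in the 10 genes with the most such peaks (points, 1 row per gene, with sites with a peak of annotated mid-length sites in brackets). FANCA has 9 peaks between 3.49 and 5.31, and HNRNPH1 runs from 3.16 to 7.13.

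Sites of mid-length introns had a peak more often than sites of long introns when all genes were pooled. The share was 9.74% at mid-length sites (1371 of 14080, 95% Wilson interval 9.26 to 10.2%), 11.3% at short introns (863 of 7653, 10.59 to 12.005%) and 7.10% at long introns (596 of 8396, 6.57 to 7.67%). The odds ratio of mid-length against long introns was 1.41 (two-sided Fisher's exact test, adjusted p = 9.32e-11), and against short introns 0.849 (adjusted exact p = 0.00165). Within the mid-length class the share was 12.1% for introns up to 500 nt, 9.41% for those over 500 and up to 1000 nt and 8.18% for longer ones. Compared within genes, neither difference passed: the Mantel-Haenszel odds ratio was 1.08 against long introns (1105 informative genes, Cochran-Mantel-Haenszel chi-square test, adjusted p = 0.373) and 1.001 against short introns (1098 genes, adjusted p = 0.989). The difference from short introns also missed the threshold with the longest annotated intron (adjusted exact p = 0.0522) and with peaks of log2 fold 3.5 or more (adjusted exact p = 0.0607).

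**Figure D4:**
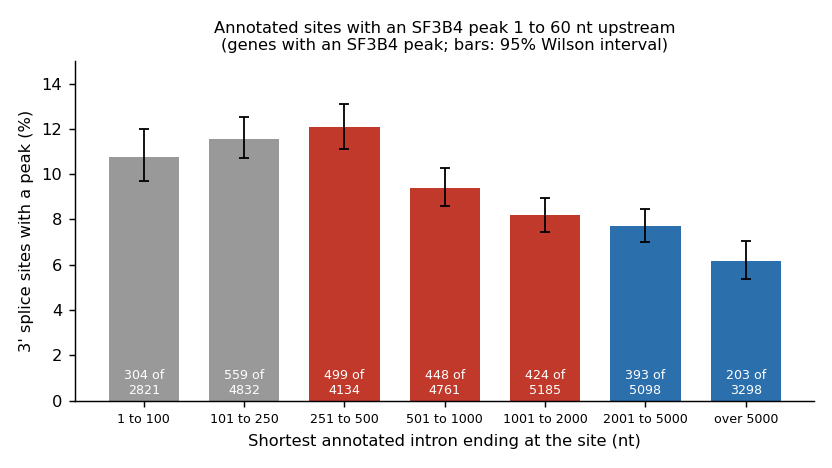
Percent of annotated 3' splice sites with an SF3B4 peak 1 to 60 nt upstream, by length of the intron in nt, in genes with an SF3B4 peak (bars; error bars, 95% Wilson interval; red, mid-length). Within the mid-length class the share is 12.1% for the shortest bin and 8.18% for the longest, all genes pooled.

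Shares also varied with the place of the intron in its gene. Among mid-length sites, 166 of 1238 acceptors of first introns had a peak (13.4%, 95% Wilson interval 11.6 to 15.4%), 1083 of 11441 of internal introns (9.47%, 8.94 to 10.02%) and 107 of 1320 of last introns (8.11%, 6.75 to 9.70%). Sites that were both first and last, counted in neither of those shares, had a peak in 15 of 81 cases (18.5%, 11.6 to 28.3%). With those 81 included, last-intron acceptors made up 8.90% of sites with a peak and 10.1% of sites without, which did not pass (odds ratio 0.873, two-sided Fisher's exact test, adjusted p = 0.245). Within genes the odds of a last intron were lower for sites with a peak (Mantel-Haenszel odds ratio 0.505, 587 informative genes, Cochran-Mantel-Haenszel chi-square test, adjusted p = 5.55e-08). With all annotated transcripts in place of the basic set the pooled difference turned around (odds ratio 1.28, adjusted exact p = 5.25e-05). A last intron here is last in any basic transcript that uses the site, not always the last of the gene. By that definition, most of the 15 genes with the highest values had their highest peak in another intron. Only HNRNPH1, HNRNPU, SRSF5, PABPC1 and PPIA among them had it in a last intron. For SRSF5 it was intron 4 of 4, and another of its peaks lay downstream in intron 6 of 7 of a different transcript. Sites with 2 or more annotated intron lengths had a peak in 194 of 1003 cases (19.3%) and sites with 1 length in 1177 of 13077 (9.001%). Sites before exons of 50 nt or less, 51 to 200 nt and over 200 nt had one in 11.4%, 10.2% and 7.47%, and the comparisons by intron lengths, exon length and first introns were not tested.

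Introns that host small nucleolar RNAs, which guide chemical modification of ribosomal and spliceosomal RNA and are released from spliced introns, were more frequent among sites with a peak. A whole snoRNA or scaRNA gene lay in the intron at 33 of 1371 sites with a peak (2.41%, 95% Wilson interval 1.72 to 3.36%) and at 105 of 12709 without (0.826%, 0.683 to 0.999%). The odds ratio was 2.96 (two-sided Fisher's exact test, adjusted p = 4.99e-06). Within genes it was 0.791 over 60 informative genes (Cochran-Mantel-Haenszel chi-square test, adjusted p = 0.614), where it did not pass. Among those with high log2 folds were EIF4A1 with SNORD10 (6.85), SNHG1 (5.87), RPL37 with SNORD72 (5.47) and RPS12 with SNORA33 (5.22). The snoRNA nearest the splice site ended a median of 109 nt upstream of it (quartiles 91 and 275 nt, range 68 to 1414 nt). Of all 1371 peaks, 4 overlapped an annotated small RNA gene. The median log2 fold was 4.05 with a snoRNA in the intron and 3.94 without.

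Intron ends under a peak were searched for branch point and pyrimidine features where the last 60 nt could be read from transcripts. Readable ends were 649 of 1371 with a peak (47.3%, 95% Wilson interval 44.7 to 49.98%) and 2815 of 12709 without (22.1%, 21.4 to 22.9%). Only ends covered by an annotated transcript were readable, so the comparisons below concern an unequally sampled subset. Whether they hold for all 1371 peaks was not tested. In the stretch 4 to 23 nt upstream, 15 or more of 20 were C or T at 349 ends with a peak (53.8%) and 1384 without (49.2%). The difference of 4.61 percentage points (95% Newcombe interval 0.343 to 8.84) did not pass after adjustment (odds ratio 1.20, two-sided Fisher's exact test, adjusted p = 0.0878), though it did with all annotated transcripts (1.37, adjusted exact p = 0.000334). CTNAC on the RNA strand, wholly 15 to 45 nt upstream, stood in 153 ends with a peak (23.6%) and 562 without (20.0%), a difference of 3.61 points (interval 0.155 to 7.31, odds ratio 1.24, adjusted exact p = 0.0928). The shorter CTNA stood in 58.2% and 52.8% and passed (odds ratio 1.25, adjusted exact p = 0.0306). CTNAC passed with all annotated transcripts (1.38, adjusted exact p = 0.00312). Within genes CTNAC did not pass (Mantel-Haenszel odds ratio 1.14, 224 informative genes, Cochran-Mantel-Haenszel chi-square test, adjusted p = 0.573). Nor did the pyrimidine share within genes (Mantel-Haenszel odds ratio 1.28, 295 informative genes, Cochran-Mantel-Haenszel chi-square test, adjusted p = 0.143). Under the remaining alternatives neither feature passed. A match is a description of letters, not a mapped branch point. Of 161 CTNAC matches at ends with a peak, 156 had their A inside the peak, at a median of 25 nt upstream, and for 79 the peak midpoint lay within 10 nt of that A. The position 25 nt upstream was covered by 94.7% of all 1371 peaks with or without the motif, so the first count follows largely from where the peaks and the search window lie.

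Of 16590 protein-coding genes with a mid-length intron, 927 had at least 1 such peak (5.59%). Large-subunit ribosomal proteins had one in 29 of 50 genes with such an intron, led by RPL10, RPL18 (5.91), RPL26 (5.71) and RPL37 (5.47). The median of their 40 peaks was 4.03, against 3.94 for all 1371. Small-subunit ribosomal proteins had one in 17 of 31 genes, with 30 peaks of median 4.37, among them RPS4X (5.53), RPS19 (5.34) and RPS12. Both shares, 58.0% and 54.8%, lie above 5.59%. An SF3B4 peak of any kind was held by 38 large-subunit and 27 small-subunit genes. Of 1850 genes with an SF3B4 peak and a 3' splice site, 966 had one at a mid-length intron. The high shares are therefore not shown to be particular to mid-length introns. This limit and the background of 5.59% apply to each list below as well. RNA amount was not measured, and its part in these and the other counts was not tested.

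Mitochondrial ribosomal proteins had one in 5 of 66 genes, close to the background, with a median of 3.31: MRPL4 stood at 4.84, MRPL12 at 3.43, MRPL38 at 3.31 and MRPS15 at 3.20. Proteasome subunits had one in 0 of 46 genes, although 3 proteasome genes had an SF3B4 peak of some kind. Genes of other tissues, such as those for albumin and haemoglobin, had 0 of 27. At a background of 5.59% few genes with a peak would be found in lists of this size, so neither 0 was read as a contrast.

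The hnRNP genes, which encode packaging and splicing proteins of nuclear RNA, had a peak in 10 of 18 with a mid-length intron, with 28 peaks of median 4.39. HNRNPA1 had 4 of 5 mid-length sites with a peak, at 5.97, 3.67, 3.63 and 3.17, and HNRNPK reached 5.53. SR protein genes had one in 4 of 11, with SRSF5 followed by SRSF7 (4.97), SRSF9 (3.72) and SRSF1 (3.10). The SF3b, SF3a and U2 partner genes had one in 6 of 22. Among them were SF1, the first reader of the branch point, at 5.03, SF3B1, the SF3b subunit around the branch adenosine, at 4.74, and SNRPA1, the U2 A' protein, at 4.64. SF3B4's own transcript had a peak in its first intron (431 nt) at 4.69, centred 32 nt upstream. DEAD and DEAH box helicases had one in 8 of 53, led by DDX17 (5.50), DDX11 (4.90), DDX42 (4.84) and DDX51 (4.53). An SF3B4 peak of any kind was held by 15 hnRNP, 10 SR, 10 SF3b, SF3a and U2 partner and 16 helicase genes.

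Translation initiation and elongation factors had a peak in 11 of 54 genes, led by EIF4A1, EIF1 (5.84), EIF4G2 (5.74) and EEF1A1 (5.74). The aminoacyl-tRNA synthetase list had one in 5 of 20 genes, with IARS at 5.69 and 5.05 in adjacent introns. That list leaves out the mitochondrial synthetase gene VARS2 described above. Chaperones and chaperonin subunits had one in 14 of 67, with the highest list median, 4.68, and HSP90AB1 (6.01), CCT6A (5.37), HSPD1 (5.27) and CCT3 (5.09) in front. The median over the SF3b and U2 partner genes, 4.64 from 7 peaks, was close to it. An SF3B4 peak of any kind was held by 14 translation factor, 10 synthetase and 18 chaperone genes of these lists.

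Glycolytic enzymes had one in 5 of 17, with PFKL at 5.34 and PKM at 3 sites up to 4.97. Tubulins and actins had one in 4 of 21, with TUBB at 5.69 and 4.84. Fanconi anaemia and recombination genes had one in 5 of 19, where FANCA gave 9 of 16 peaks and RAD54L the highest value. Replication proteins had one in 5 of 26, with RFC5 at 5.34, CDC45 at 5.05 and POLE giving 5 of 10 peaks. Genes with an SF3B4 peak of any kind were 8 glycolytic, 6 tubulin and actin, 8 Fanconi anaemia and recombination and 12 replication genes.

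**Figure D5:**
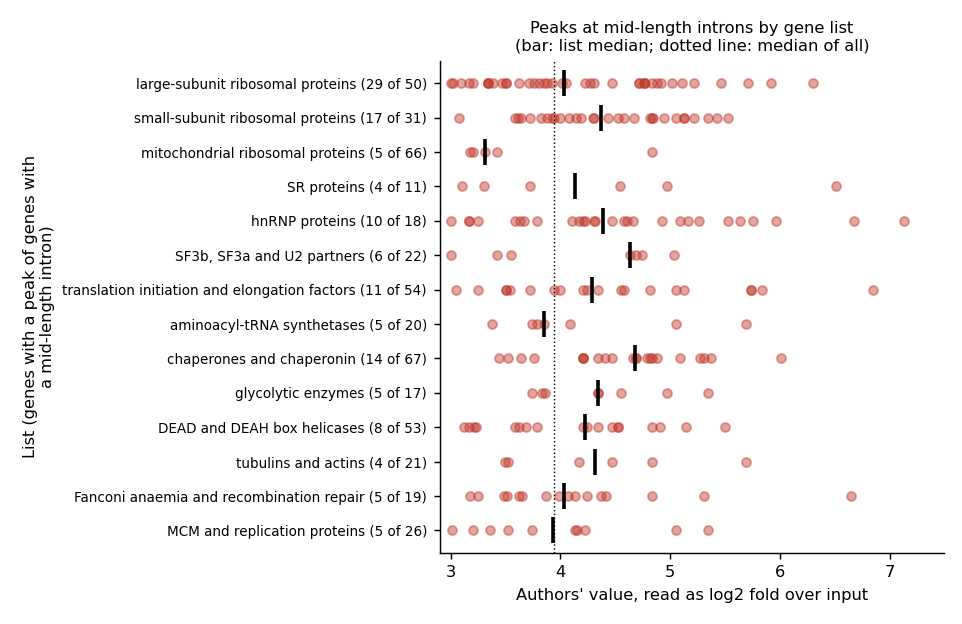
The authors' value, read as log2 fold over input, of each peak at a mid-length intron in 14 gene lists (points; bar, list median; dotted line, the median of 3.94 over all 1371; in brackets, genes with a peak of genes with a mid-length intron). List medians run from 3.31 for mitochondrial ribosomal proteins to 4.68 for chaperones.

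Noncoding genes and pseudogenes held 51 of the 1371 peaks. SNHG1, a host RNA of snoRNAs, had 3 peaks at 5.87, 4.05 and 3.799, each in an intron with a snoRNA. GAS5, another snoRNA host, had 2 (5.56 and 4.12), and MIR17HG, the primary transcript of the miR-17 cluster, had 2 (4.86 and 4.54). Reads of pseudogenes and of the genes they resemble cannot be told apart here.

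Few SF3B4 peaks of any kind lay near one of the 270 G4PID peaks on the same strand. Within 100 nt there were 4 of all 3660 SF3B4 peaks, 0 of the 1371 at mid-length introns, 2 of 863 at short introns and 0 of 596 at long introns, too few to compare. Within 500 nt there were 8 of 3660, and 2 of these lay at mid-length introns, in TCF25, where the gap was 141 nt (SF3B4 peak 4.22, G4PID peak 6.35), and in NDUFA13, a complex I subunit gene, where it was 161 nt (3.37 and 3.22).

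At the length bounds of the rule, the nearest peaks inside were those of PANK4 (log2 fold 3.58), 1 nt above the lower bound, and SEMA6C (1998 nt, 4.05). The nearest outside were in MAN2C1 (250 nt, 3.27), CPNE1 (250 nt, 5.64) and MAP4K5 (1 nt above the upper bound, 5.31).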

How the data were processed

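The submitters' processing notes list hg19 and hg38 as builds and name STAR 2.7.0d and cutadapt 3.4. Neither the peak caller nor how libraries were joined is stated in those sources. Each deposited list by the authors holds, per peak, a value read as −log10 p and one read as log2 fold over input, from column order and range. The p column held 15.7 in 116 of the 1371 peaks.

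A peak took the same-strand GENCODE 29 gene holding its midpoint: protein-coding first, then exonic, then the shorter gene (82 midpoints had several candidates). Distances of 1 denote the last intron base. Intron sequence came from 205759 transcripts placed on hg38, with 0 disagreeing bases. Shares were compared with Fisher's exact test and, within genes, the Cochran-Mantel-Haenszel chi-square test, with Benjamini-Hochberg adjustment over 12 tests. The code was tested on simulated data. Named genes were the 15 with the highest fold, the 10 with the most peaks and up to 4 leading genes of each of 16 lists. Members and lists were chosen with earlier results of these data known; noncoding genes, TCF25, NDUFA13 and genes at the length bounds were picked after their values were seen. Python 3.11.15, numpy 2.4.6, scipy 1.17.1 and matplotlib 3.10.9 were used. One of the named genes is not reported here.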

Additional observations from a re-analysis of the deposited data

How the results depend on the processing

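Under 15 alternatives, 110 values were recomputed. Of these, 85 kept the direction and side of the threshold or, for counts without a test, stayed within 1.5 times. The 85 include values that could not change. Those with 1 peak per splice site were fixed because each peak already lay at a site of its own. The count of peaks overlapping a G4PID peak was fixed because 0 lay within 100 nt. In all, 12 odds ratios changed side of 1, and 9 of these missed the threshold both before and after. With the comparison made within genes, the odds ratio for sites with a peak was 1.001 for mid-length against short introns and 1.08 against long introns, that for snoRNA host introns was 0.791, and that for last introns 0.505. For mid-length against short introns it was 0.889 with the longest annotated intron and 0.884 at log2 fold 3.5 or more. Reaching the exon, against long introns, gave 0.840 with the longest annotated intron, 0.841 with all transcripts, 0.814 with lengths over 300 and up to 1500 nt and 0.856 with midpoints 10 to 60 nt upstream. All transcripts gave 1.27 for midpoints 20 to 40 nt upstream against long introns, 1.38 for CTNAC, 1.37 for pyrimidines and 1.28 for last introns, and CTNA gave 1.25. With all transcripts, 557 of 1439 sites with a peak and 5081 of 15369 without counted as last introns. For midpoints 20 to 40 nt upstream, against short introns, the odds ratio was 0.955 with midpoints 10 to 60 nt upstream, 0.912 with 1 peak per gene and 0.806 by the upstream edge, and against long introns 0.783 by the upstream edge. For log2 fold 4 or more it was 0.980 against short introns with 1 peak per gene. Against long introns it was 0.957 with all transcripts, 0.997 with lengths over 300 and up to 1500 nt and 0.996 at log2 fold 3.5 or more. Reaching the exon, against short introns, gave 1.03 with 1 peak per gene. Within 500 nt, 2 peaks had a G4PID neighbour. The cause of these changes was not tested. The number of peaks ran from 1037 to 1439.

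No paired analysis was possible because the deposited lists carry no value per library, and for the same reason no library was left out. Depth is unknown, so a site without a peak is not shown to be unbound.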
